A study of Mus musculus with 6 samples.

Results

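Expression of 10 genes of the YAP and TEAD pathway was described in 6 RNA sequencing libraries of cultured cells from KM mice, an outbred stock. The genes were chosen by name as pathway components and targets, and all 10 were found by NCBI gene number among the 18305 genes of the count tables. They are the coactivator genes Yap1 and Wwtr1 (which encodes TAZ), the DNA-binding partner Tead1, the kinase Lats2, the scaffold genes Amotl1, Amotl2 and Ajuba, and the targets Ccn1 (formerly Cyr61), Ccn2 (formerly Ctgf) and Ankrd1. All 10 passed the filter on low counts.

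CiLC were mouse embryonic fibroblasts to which small molecules, not named in the labels, were given beginning 24 hours after the cells were seeded. LC were Leydig cells, which make androgens in the testis, prepared from testis and grown for 0 to 1 passages. MEF were embryonic fibroblasts from embryos at 12.5 or 13.5 days, grown like the CiLC cultures for 3 to 5 passages. Each group had 2 libraries, and the series is titled as a conversion of fibroblasts into Leydig-like cells.

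Total estimated reads ran from 18442442 to 18944320 per library, with 18442442 and 18462296 in CiLC. The 8 Leydig markers summed to 144 to 148 CPM (reads of a gene set against all reads of its library, scaled between samples) in CiLC, 1080 to 1110 CPM in LC and 7.55 to 9.42 CPM in MEF. Within the LC label, Cyp17a1, an enzyme of androgen synthesis, had 0 and 1 reads. Lhcgr, the receptor for luteinizing hormone, had 3 and 2 reads, and Hsd3b6, of the same list, had 7.72 and 3.56 reads. These defining markers were nearly absent in LC and were not tested. The 5 Leydig markers that were tested were all higher in LC than in MEF, beside 35.7% of all genes. All 5 tested Sertoli cell markers were higher in LC than in MEF, beside the same 35.7% (sum 180 to 183 CPM in LC, 12.2 to 12.4 CPM in MEF). Of 5 epithelial markers, 3 were higher in CiLC than in MEF, 1 was lower and 1 was not called. Of all genes, 26.1% were higher and 25.5% lower in that comparison. The keratin genes Krt8 and Krt18 were 38.0-fold and 22.1-fold higher, Krt8 on 1 and 4 reads in MEF, while Cdh1 was 10.4-fold lower. CiLC had more than MEF of 3 macrophage markers of 8 and less of 4, beside 26.1% higher and 25.5% lower of all genes. The median log2 fold change was -0.30. Lyz2 was at 7571 CPM in CiLC and 2660 CPM in MEF, and Cx3cr1 at 80.8 CPM in CiLC and 590 CPM in MEF. The 8 markers summed to 10100 and 10300 CPM in CiLC, mostly Lyz2. The sums were 3790 and 3460 CPM in LC, and 6580 and 6690 CPM in MEF. All 8 were higher in CiLC than in LC, beside 35.0% of all genes. In such bulk samples, fewer cells of a type and less RNA per cell cannot be told apart.

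YAP and TAZ do not bind DNA themselves. They enter the nucleus, bind TEAD proteins and switch on genes such as those of the CCN family of secreted matrix proteins. The kinases of the Hippo pathway end in LATS1 and LATS2, which phosphorylate YAP and TAZ and keep them in the cytoplasm. Angiomotin proteins (AMOTL1 and AMOTL2 among them) hold YAP and TAZ at junctions and actin filaments, and AJUBA restrains LATS. Spreading on a stiff surface, as fibroblasts do on plastic, is known to bring YAP and TAZ into the nucleus. RNA levels report neither phosphorylation nor location.

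The targets Ankrd1 and Ccn2 were much lower in CiLC than in either other culture. Ankrd1 was 15.2-fold lower in CiLC than in MEF and Ccn2 5.52-fold lower. Ccn1 was 1.19-fold lower, and the genes of the coactivators, TEAD1, LATS2 and the scaffolds differed by at most 1.37-fold in that comparison. In LC the level of Ankrd1 was close to that of MEF, whereas Ccn1 was 1.82-fold higher. At an adjusted p of 0.05, CiLC had higher levels than MEF of 2 of the 10 genes and lower levels of 6, beside 26.1% higher and 25.5% lower among all 14581 genes tested (51.6% called in all). At least 2-fold changes were 2 of the 10, beside 12.2% of all genes.

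The plot of CPM by library shows Ankrd1 and Ccn2 far below the other cultures in CiLC, while Ccn1 differed less between CiLC and MEF than Wwtr1, Tead1 and Ajuba did.

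**Figure D1:**
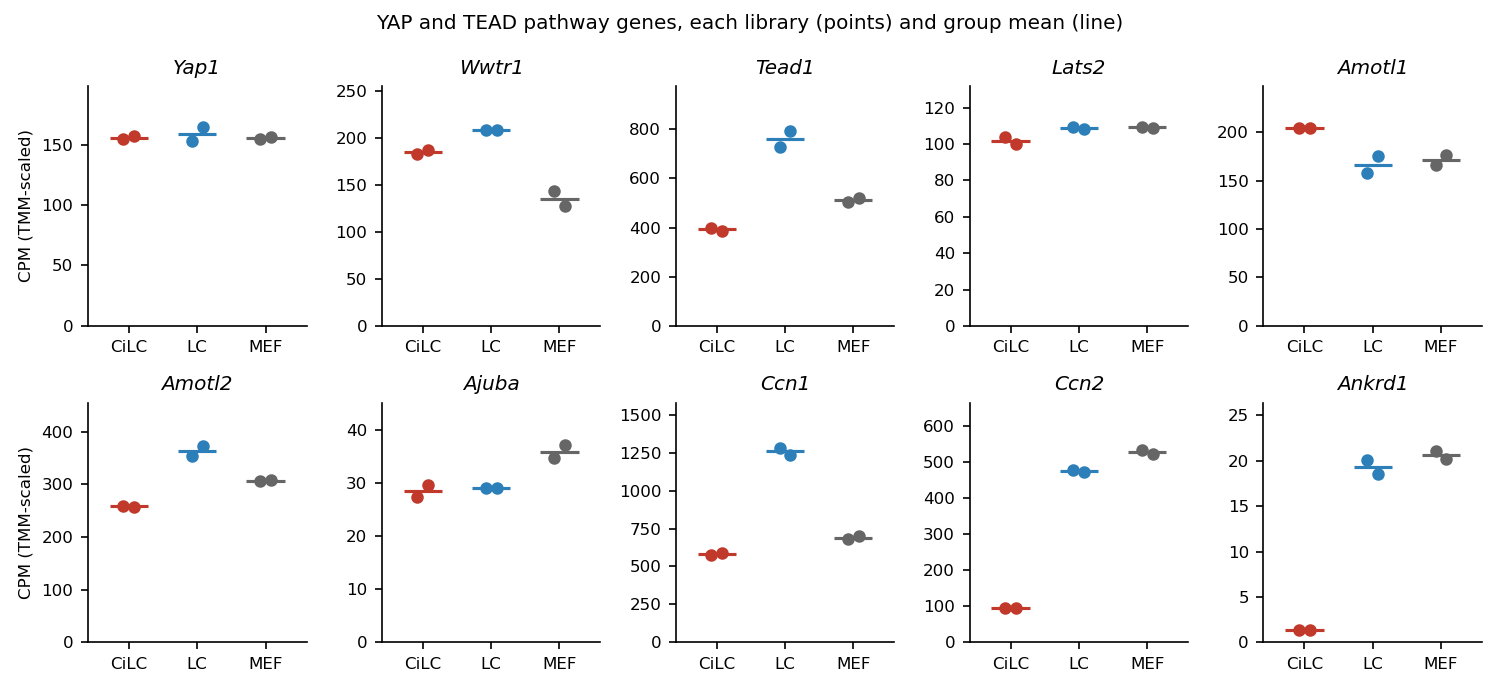
CPM (linear axis from 0) of the 10 genes in each of the 2 libraries of CiLC, LC and MEF, with the group mean as a line. Ankrd1 and Ccn2 are far lower in CiLC (mean 1.35 and 95.6 CPM) than in LC or MEF, while Yap1 lies between 153 and 165 CPM in all 6 libraries.

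TEAD proteins bind the core GGAATG, or CATTCC when read on the other strand, long known from muscle promoters. The 250 bases before the annotated start were searched on both strands in the RefSeq promoter table (build GRCm38.p6, reference strain sequence, which is not the KM sequence). The table matched 8 of the 10 genes, with 10 windows. It held no window for Ccn2 and Tead1, so these genes were not searched. The core was found in 6 of those 8 genes: Ankrd1 and Ajuba with 2 matches each, and Ccn1, Amotl2, Yap1 and Wwtr1 with 1 each. Of all 27025 genes in the promoter table, 14.4% had a core. Counted by window, the core occurred in 7 of the 10, of which 2 are overlapping Wwtr1 windows with the same match. It occurred in 12.6% of all 32851 windows, and 1.02% had 2 or more. The genes with a core included the one with the largest fall in CiLC, Ankrd1, and one with no change called, Yap1. These stretches show each match with 12 bases on either side, on the strand of the gene, 5′ to 3′, with the core in capitals.
Ankrd1 distal: gtcactgccaaaGGAATGaccctctcacat
Ankrd1 proximal: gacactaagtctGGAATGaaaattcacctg
Ccn1: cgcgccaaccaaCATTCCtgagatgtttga
Amotl2: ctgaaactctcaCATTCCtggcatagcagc
Ajuba distal: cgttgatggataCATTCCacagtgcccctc
Ajuba proximal: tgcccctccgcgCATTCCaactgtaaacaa
Yap1: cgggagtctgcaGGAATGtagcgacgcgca
Wwtr1: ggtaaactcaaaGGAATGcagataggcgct

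The Ankrd1 stretches lie on the minus strand at chr19:36120037-36120066 and chr19:36119950-36119979, with the cores at -210 to -205 and -123 to -118 from the RefSeq start. All 250 bases of that window fall in exon sequence that GENCODE vM21 annotates for Ankrd1, so the window is promoter by one annotation and exon by the other. The same holds for the core of Amotl2, at -65 to -60, since the 136 bases nearest the start lie in Amotl2 exon sequence, and 17 bases of the Yap1 window overlap an exon of Gm45494. The other stretches are at chr3:145650071-145650100 (Ccn1, minus), chr9:102717727-102717756 (Amotl2, plus), chr14:54577830-54577859 and chr14:54577808-54577837 (Ajuba, minus), chr9:8004720-8004749 (Yap1, minus) and chr3:57576029-57576058 (Wwtr1, minus). A match is a run of letters, and binding was not measured.

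The Ccn1 window is given whole, since Ccn1 had the highest level of the 10 genes per kilobase and its window lies outside annotated exons (chr3:145649986-145650235, minus strand). Capitals mark the TEAD core at -103 to -98 and a TATAAA run at -25 to -20, which 12.4% of all windows also hold.
Ccn1 window: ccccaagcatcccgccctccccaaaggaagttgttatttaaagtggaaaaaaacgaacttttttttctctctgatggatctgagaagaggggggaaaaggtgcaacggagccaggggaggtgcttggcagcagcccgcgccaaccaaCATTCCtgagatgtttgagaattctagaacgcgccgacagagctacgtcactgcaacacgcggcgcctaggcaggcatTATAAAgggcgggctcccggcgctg

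The AP-1 motif TGANTCA and the CArG box, which serum response factor binds, were in none of the members' windows, beside 6.75% and 1.47% of all windows.

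**Figure D2:**
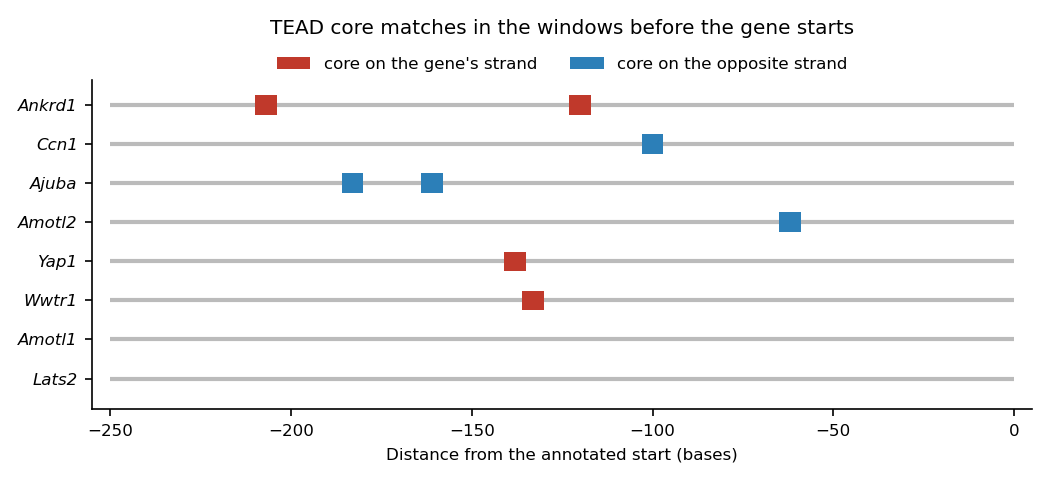
Position of each GGAATG match (red on the gene's strand, blue on the opposite strand) in the 250 bases before the annotated start of the 8 genes, drawn as grey lines; the x axis is distance from the start in bases. Ankrd1 and Ajuba hold 2 matches, Ccn1, Amotl2, Yap1 and Wwtr1 hold 1, and none was found for Amotl1 or Lats2.

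Yap1 encodes the coactivator YAP. It had 155 and 157 CPM in CiLC, 153 and 165 CPM in LC and 155 and 156 CPM in MEF, so the groups overlapped. The log2 fold change of CiLC over MEF was 0.00 (95% interval -0.10 to 0.10, edgeR adjusted p = 0.964), and that of CiLC over LC was -0.03 (interval -0.13 to 0.07, adjusted p = 0.623). Under quantile normalization, Yap1 was instead called as higher in CiLC than in LC (log2 fold change 0.148, limma adjusted p = 0.0122) and lower in LC than in MEF (-0.153, adjusted p = 0.0103).

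Wwtr1 encodes TAZ, the other coactivator. It had 184 and 188 CPM in CiLC, 209 and 208 CPM in LC, and 143 and 128 CPM in MEF. No MEF library reached the level of a CiLC or LC library, although the MEF libraries were the farthest apart of any group for the 10 genes (coefficient of variation 8.13%). Wwtr1 was 1.37-fold higher in CiLC than in MEF (log2 fold change 0.45 ± 0.052 SE, adjusted p = 1.22e-07) and 1.54-fold higher in LC than in MEF (0.62 ± 0.052 SE, adjusted p = 2.72e-10). It was 1.12-fold lower in CiLC than in LC (adjusted p = 0.0056), a call lost without CiLC replicate 1 (adjusted p = 0.0697) and turned in direction by quantile normalization (log2 fold change 0.027, adjusted p = 0.71). Per kilobase of exon, Wwtr1 stood to Yap1 in a ratio of 1.04 in each CiLC library, 1.19 and 1.10 in LC, and 0.809 and 0.713 in MEF.

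Tead1 encodes a TEAD factor, which brings YAP and TAZ to DNA. It had 397 and 388 CPM in CiLC, 729 and 793 CPM in LC and 505 and 520 CPM in MEF. The groups did not overlap, and their order was LC, MEF, CiLC. Tead1 was 1.31-fold lower in CiLC than in MEF (log2 fold change -0.38 ± 0.049 SE, adjusted p = 5.11e-07) and 1.94-fold lower in CiLC than in LC (-0.96 ± 0.048 SE, adjusted p = 2.5e-14). It was 1.49-fold higher in LC than in MEF (adjusted p = 2.77e-10). Of the summed level of Tead1 to Tead4 per kilobase, Tead1 made up 52.7% and 51.9% in CiLC, 68.0% and 69.8% in LC, and 55.5% and 56.3% in MEF.

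Lats2 encodes the kinase that phosphorylates YAP and TAZ and is itself a YAP target. It had 104 and 100 CPM in CiLC, 109 and 109 CPM in LC and 110 and 109 CPM in MEF. The CiLC libraries were the lowest by a small margin that was not called, with a log2 fold change of -0.10 over MEF (interval -0.20 to 0.00, adjusted p = 0.0865) and -0.10 over LC (adjusted p = 0.0858). LC over MEF was not called (log2 fold change -0.01, interval -0.11 to 0.10), except under quantile normalization (-0.116, limma adjusted p = 0.0306).

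Amotl1 and Amotl2 encode angiomotin-like scaffolds, and their small differences between CiLC and MEF ran in opposite directions. Amotl1 had 204 and 204 CPM in CiLC, 158 and 175 CPM in LC and 166 and 176 CPM in MEF, with both CiLC libraries above all others. It was 1.19-fold higher in CiLC than in MEF (log2 fold change 0.25 ± 0.052 SE, adjusted p = 0.000272) and 1.23-fold higher than in LC (adjusted p = 3.2e-05), while LC and MEF overlapped (adjusted p = 0.51). Under quantile normalization Amotl1 was called lower in LC than in MEF (-0.226, limma adjusted p = 0.00339). Amotl2, which is also a YAP target, had 260 and 258 CPM in CiLC, 355 and 374 CPM in LC and 306 and 308 CPM in MEF. It was 1.19-fold lower in CiLC than in MEF (log2 fold change -0.25 ± 0.046 SE, adjusted p = 8.41e-05) and 1.41-fold lower than in LC (adjusted p = 1.61e-09). Its rise in LC over MEF (0.25 ± 0.045 SE, adjusted p = 4.75e-05) was lost and turned in direction under quantile normalization (-0.024, adjusted p = 0.588). With a coefficient of variation of 0.1 assumed, the calls in CiLC against MEF were lost (edgeR adjusted p = 0.203 for Amotl1 and 0.212 for Amotl2). The calls of Amotl1 in CiLC against LC (0.0802) and Amotl2 in LC against MEF (0.147) were also lost. Amotl2 stayed lower in CiLC than in LC (0.00188). Amotl2 exceeded Amotl1 per kilobase in every library, by 2.61 and 2.59 times in CiLC, 4.61 and 4.37 times in LC, and 3.78 and 3.58 times in MEF.

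Ajuba encodes a LIM protein that binds LATS kinases. It had 27.5 and 29.7 CPM in CiLC, 29.1 and 29.1 CPM in LC and 34.8 and 37.2 CPM in MEF. The CiLC and LC libraries overlapped (log2 fold change -0.02, interval -0.17 to 0.12, adjusted p = 0.77), and both groups lay below MEF. Ajuba was 1.26-fold lower in CiLC (adjusted p = 0.000249) and 1.24-fold lower in LC (adjusted p = 0.000412) than in MEF. The values of Ajuba, Tead1 and Amotl1 in all 6 libraries, and of Wwtr1 in 5, were not whole numbers, and where the fractions come from is not given in the sources used here.

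Ankrd1 encodes a nuclear ankyrin repeat protein, known from heart muscle, whose gene is a standard readout of YAP and TEAD. It had 27 and 26 reads (1.37 and 1.32 CPM) in CiLC, 346 and 315 reads (20.1 and 18.5 CPM) in LC, and 401 and 387 reads (21.0 and 20.1 CPM) in MEF. The CiLC libraries stood far below the rest, and LC and MEF were close. The log2 fold change was -3.93 ± 0.192 SE for CiLC over MEF (adjusted p = 1.35e-16) and -3.84 ± 0.193 SE for CiLC over LC, 14.3-fold lower (adjusted p = 1.06e-16). LC over MEF was not called (log2 fold change -0.09, interval -0.27 to 0.09, adjusted p = 0.358).

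Ccn2 encodes a secreted matrix-associated protein that promotes matrix production. It had 95 and 96.2 CPM in CiLC, 479 and 473 CPM in LC and 533 and 523 CPM in MEF. The groups did not overlap, and the gap from CiLC to the others was many times the spread within any group. The log2 fold change was -2.47 ± 0.047 SE for CiLC over MEF (adjusted p = 1.76e-21) and -2.32 ± 0.048 SE for CiLC over LC, 4.98-fold lower (adjusted p = 1.09e-21). LC was 1.11-fold lower than MEF (adjusted p = 0.00411).

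Ccn1 encodes the related secreted protein CYR61, which binds integrins. It had 574 and 588 CPM in CiLC, 1281 and 1236 CPM in LC and 680 and 699 CPM in MEF, in the order LC, MEF, CiLC. The log2 fold change was -0.25 ± 0.045 SE for CiLC over MEF (adjusted p = 7.69e-05), 0.87 ± 0.045 SE for LC over MEF (adjusted p = 3.53e-14) and -1.11 ± 0.045 SE for CiLC over LC, 2.17-fold lower (adjusted p = 3.63e-16). Per kilobase, Ccn1 exceeded Ccn2 by 8.31 and 8.39 times in CiLC, 3.67 and 3.59 times in LC, and 1.76 and 1.83 times in MEF, so the balance of these related genes differed in every group.

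**Figure D3:**
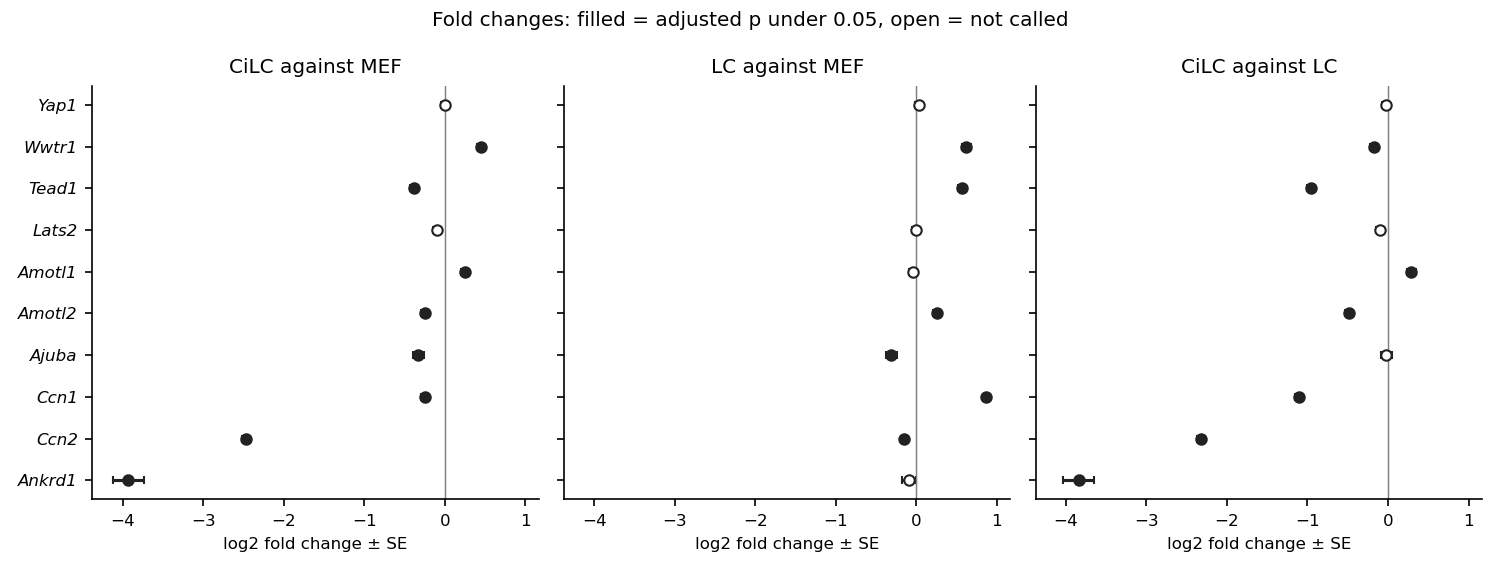
Log2 fold change with its standard error for the 10 genes in the 3 comparisons, on a shared x axis; filled points have an adjusted p under 0.05 and open points were not called. Ankrd1 (-3.93) and Ccn2 (-2.47) stand apart in CiLC against MEF, while no gene reaches 1 in either direction in LC against MEF.

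In LC against MEF, 4 of the 10 genes were higher (Ccn1, Wwtr1, Tead1 and Amotl2) and 2 lower (Ccn2 and Ajuba), beside 35.7% higher and 35.0% lower of all genes tested (70.7% called). None changed at least 2-fold, beside 27.2% of all genes. In CiLC against LC, 1 was higher (Amotl1) and 6 lower (Ankrd1, Ccn2, Ccn1, Tead1, Amotl2 and Wwtr1), beside 35.0% higher and 35.6% lower of all genes (70.6% called). Of these, 3 were at least 2-fold lower, beside 25.4% of all genes changed by that much in either direction. The total number called in these comparisons, 6 and 7 of 10, was near the share of all genes called. The comparisons share libraries, so their results are not independent of each other.

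The spread between the libraries of a group was small (common biological coefficient of variation 3.16%), and the labels do not say that they came from separate cultures or animals. The p-values therefore speak to these libraries' own spread and to nothing wider, and that spread may be technical. With a coefficient of 0.1 assumed for every gene, 1 of the 10 was called higher and 3 lower in CiLC against MEF (28.8% of all genes called), 3 higher and 0 lower in LC against MEF (53.6%), and 0 higher and 5 lower in CiLC against LC (53.3%). With 0.4, only Ankrd1 (adjusted p = 5.84e-07) and Ccn2 (0.00205) of the 10 stayed called in CiLC against MEF, where 4.63% of all genes were, and the same genes in CiLC against LC (2.34e-07 and 0.00141), where 15.4% were. None of the 10 was then called in LC against MEF, beside 17.2% of all genes.

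Within each group, the order of levels per kilobase placed Ccn1 first: 288 CPM per kilobase in CiLC, 623 in LC and 342 in MEF. Ccn2 was second in LC (172) and MEF (190), but in CiLC (34.5) it was below Amotl2 (58.0), Tead1 (39.0), Wwtr1 (38.9) and Yap1 (37.4). Ankrd1 was last in CiLC (0.666), far below Ajuba (8.42), whereas in LC (9.56) and MEF (10.2) it was near Ajuba (8.56 and 10.6). Exon lengths came from GENCODE vM21 and not from the annotation behind the counts, so these levels are approximate.

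The wider coactivator and TEAD group had 8 of 10 listed genes in the tables. In CiLC against MEF 2 rose, 5 fell and 1 was not called, with a median log2 fold change of -0.18, beside 0.01 over all genes and 26.1% higher and 25.5% lower of all genes. Without CiLC replicate 2, the falls were 2, since the calls of Tead2, Tead3 and Tead4 were lost. Vgll3, a cofactor that binds TEAD proteins, had 120 and 123 CPM in CiLC, 403 and 400 CPM in LC and 95.1 and 86.4 CPM in MEF. It was 1.34-fold higher in CiLC than in MEF (adjusted p = 5.29e-07) and 4.43-fold higher in LC than in MEF (adjusted p = 1.11e-20). Vgll4, which competes with YAP for TEAD, was 1.57-fold lower in CiLC (21.0 ± 0.308 CPM) than in MEF (33.0 ± 0.278 CPM; SD, n = 2 each; edgeR adjusted p = 6.78e-08). Tead2 was 1.16-fold lower in CiLC than in MEF (adjusted p = 0.00545), a call lost with DESeq2 (0.0734), without CiLC replicate 2 and without MEF replicate 2. Tead4, the TEAD of the early embryo, had 11 and 5 reads in CiLC, 8 and 8 in LC and 26.1 and 23.1 in MEF. It was 3.11-fold lower in CiLC than in MEF (adjusted p = 0.00275), and its log2 fold change ran from -2.31 without CiLC replicate 1 to -1.18 without CiLC replicate 2, where the call was lost.

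The Hippo kinase group has 12 genes upstream of YAP. In CiLC against MEF 3 rose and 3 fell, with 6 uncalled and a median log2 fold change of -0.07, near the 51.6% called of all genes. Stk3, which encodes the kinase MST2, was 1.81-fold higher in CiLC (42.5 ± 1.33 CPM) than in MEF (23.4 ± 0.695 CPM; adjusted p = 1.53e-10). Mob1b, a LATS cofactor, was 1.30-fold higher (adjusted p = 0.00268), a call lost without CiLC replicate 1 or MEF replicate 1. Wwc2, a relative of the scaffold KIBRA, was 2.11-fold lower in CiLC (76.5 ± 1.16 CPM) than in MEF (161 ± 7.47 CPM; adjusted p = 1.45e-14). Map4k4, a kinase that can act on LATS, had 269 ± 2.75 CPM in CiLC, 1042 ± 20.5 CPM in LC and 354 ± 9.97 CPM in MEF. It was 1.31-fold lower in CiLC than in MEF (adjusted p = 1.83e-07) and 3.87-fold lower than in LC (adjusted p = 1.28e-20). In LC against MEF 4 of the 12 rose and 5 fell, near the 35.7% and 35.0% of all genes.

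Of 10 junction and scaffold genes, 3 rose, 6 fell and 1 was not called in CiLC against MEF (median log2 fold change -0.17). Of all genes, 26.1% rose and 25.5% fell. With a coefficient of variation of 0.1 assumed, 1 of the 10 rose and 2 fell, beside 28.8% of all genes called in either direction. Frmd6, a FERM protein that activates Hippo kinases, was 1.61-fold higher in CiLC (185 ± 0.119 CPM) than in MEF (115 ± 1.65 CPM; adjusted p = 1.16e-11). Limd1, a relative of Ajuba, was 1.16-fold higher (adjusted p = 0.00102) and Wtip, another, 1.57-fold lower (adjusted p = 1.49e-07). Ptpn14, a phosphatase that binds YAP, was 1.41-fold lower (adjusted p = 4.76e-08). In LC against MEF 2 rose and 6 fell (median log2 fold change -0.44, beside -0.01 over all genes), beside 35.7% higher and 35.0% lower of all genes. Of the falls, 4 were at least 2-fold, beside 27.2% of all genes changed by that much in either direction. The giant cadherin gene Fat4 and the angiomotin gene Amot, chosen after their values were seen, set LC apart. Fat4 had 298 and 288 CPM in CiLC, 24.4 and 24.4 CPM in LC, and 298 and 314 CPM in MEF, and was 12.5-fold lower in LC than in MEF (adjusted p = 1.06e-23). Amot was 4.39-fold lower in LC (11.4 ± 0.783 CPM) than in MEF (50.3 ± 0.326 CPM; adjusted p = 3.55e-17).

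A list of 22 genes known as YAP and TAZ targets, mainly from human tumours, holds Ankrd1, Ccn1, Ccn2, Amotl2 and Lats2 and was read gene by gene. In CiLC against MEF 4 rose and 15 fell, with 3 uncalled and a median log2 fold change of -0.26 (0.01 over all genes, of which 26.1% rose and 25.5% fell). Of the falls, 4 were at least 2-fold, beside 12.2% of all genes changed by that much in either direction. The rises were 2 without CiLC replicate 2 and also 2 without MEF replicate 2, since the calls of Rbms3 and Tgfb2 were lost. When the coefficient of variation was taken as 0.1, 1 rose and 9 fell, beside 28.8% of all genes called in either direction. With 0.4 only 2 fell, beside 4.63% of all genes called. Besides Ankrd1 and Ccn2, the genes with at least 2-fold falls were Gadd45b and Fjx1. Gadd45b, a stress response gene, had 7.07 and 6.85 CPM in CiLC, 31.0 and 30.4 CPM in LC, and 24.5 and 23.5 CPM in MEF, and was 3.45-fold lower in CiLC than in MEF (adjusted p = 1.38e-13). Fjx1, a secreted regulator of Fat signalling, was 2.80-fold lower in CiLC (3.40 ± 0.135 CPM) than in MEF (9.53 ± 1.02 CPM; adjusted p = 1.23e-08). F3, tissue factor of blood clotting, was 1.98-fold lower in CiLC than in MEF (adjusted p = 6.68e-14). Gadd45a went the other way and was 1.83-fold higher in CiLC (41.8 ± 1.32 CPM) than in MEF (22.8 ± 0.0332 CPM; adjusted p = 8.33e-11).

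In LC against MEF 11 genes of the list rose and 9 fell, with 2 uncalled and a median log2 fold change of 0.12, beside 35.7% higher and 35.0% lower of all genes. The members with the largest changes were chosen after their values were seen. Axl, a receptor tyrosine kinase, had 240 ± 4.9 CPM in CiLC, 1790 ± 29.6 CPM in LC and 303 ± 4.62 CPM in MEF. It was 5.91-fold higher in LC than in MEF (adjusted p = 8.3e-23) and 1.26-fold lower in CiLC than in MEF (adjusted p = 2.3e-06). Nt5e, the surface nucleotidase CD73, was 9.02-fold higher in LC (151 ± 4.54 CPM) than in MEF (16.8 ± 0.417 CPM; adjusted p = 2.04e-22). Igfbp3, a carrier of insulin-like growth factors, was 8.70-fold lower in LC (246 ± 4.19 CPM) than in MEF (2137 ± 12.8 CPM; adjusted p = 4.23e-24). In CiLC against LC 6 rose and 13 fell (median log2 fold change -0.54), beside 35.0% higher and 35.6% lower of all genes.

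**Figure D4:**
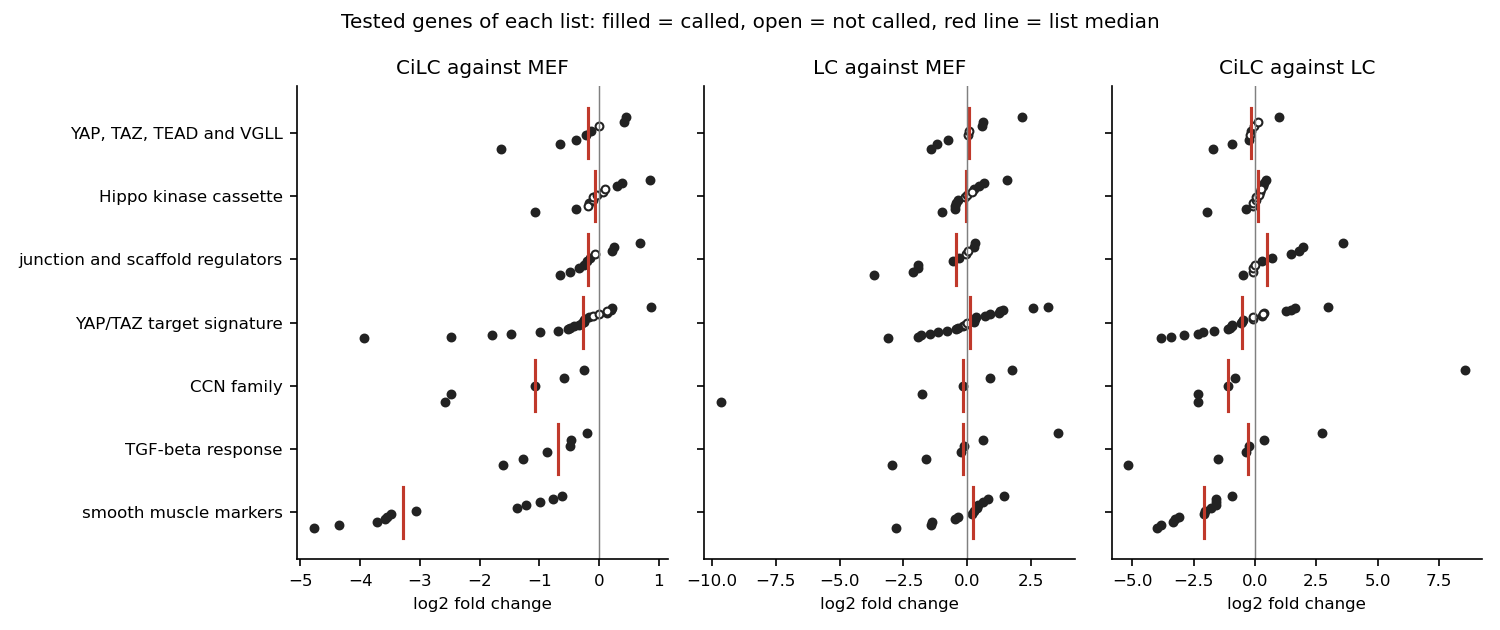
Log2 fold changes of the tested genes of 7 lists in the 3 comparisons, each on its own x axis; filled points were called, open points were not, and the red line is the list median. In CiLC against MEF the target list has a tail of falls led by Ankrd1 (-3.93) and Ccn2 (-2.47), and all 12 smooth muscle markers are lower.

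The CCN family encodes secreted matrix proteins of related structure. All 5 tested members, Ccn1 and Ccn2 among them, were lower in CiLC than in MEF, beside 25.5% of all genes. Of these, 3 were at least 2-fold lower, beside 12.2% of all genes changed by that much in either direction. The median log2 fold change was -1.07, beside 0.01 over all genes. With a coefficient of variation of 0.1 assumed, 4 stayed called, and with 0.4 only 2, beside 28.8% and 4.63% of all genes. Ccn4 (formerly Wisp1), known as a Wnt target, had 94.1 and 87.1 CPM in CiLC, 158 and 158 CPM in LC, and 557 and 524 CPM in MEF, and was 5.96-fold lower in CiLC than in MEF (adjusted p = 3.36e-21). Ccn3 (formerly Nov) had 370 and 362 CPM in CiLC, 1.33 and 0.589 CPM in LC, and 782 and 755 CPM in MEF. It was 2.10-fold lower in CiLC than in MEF (adjusted p = 1.4e-14) and nearly absent in LC, where it had 22.7 and 10.1 reads. The log2 fold change of Ccn3 in LC over MEF was -9.63 (adjusted p = 1e-26) and ran from -10.33 without LC replicate 1 to -9.16 without LC replicate 2. Ccn5 (formerly Wisp2) had 40.6 and 40.4 CPM in CiLC, 203 and 201 CPM in LC, and 59.9 and 61.8 CPM in MEF. It was 1.5-fold lower in CiLC than in MEF (adjusted p = 7.21e-09) and 3.32-fold higher in LC than in MEF (adjusted p = 2.75e-19). Ccn6 had at most 4 reads in any library and was not tested. Summed over the family, the level per kilobase was 490 and 493 CPM in CiLC, 957 and 931 CPM in LC, and 946 and 937 CPM in MEF. Ccn1 made up 58.1% and 59.1% of that sum in CiLC, 66.3% and 65.7% in LC, and 35.6% and 37.0% in MEF.

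**Figure D5:**
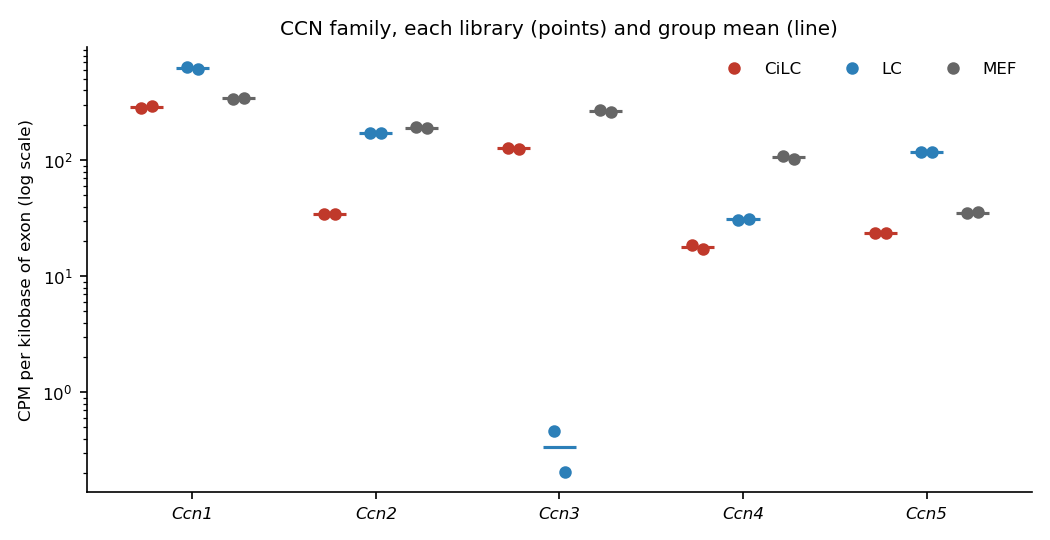
CPM per kilobase of exon (log axis) of Ccn1 to Ccn5 in each library of CiLC, LC and MEF, with group means as lines; Ccn6 is left out since it had 0 reads in 2 libraries. All 5 genes are lower in CiLC than in MEF, and Ccn3 drops to 1.33 and 0.589 CPM before length scaling in LC.

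Several of these targets are known to answer to other signals too, among them TGF-beta and the actin-linked factor SRF. Whether such signals had a part in the levels of Ankrd1 and Ccn2 was not tested. CiLC had lower levels than MEF of all 6 genes of a short TGF-beta response list, beside 25.5% of all genes. The median log2 fold change was -0.68, beside 0.01 over all genes. With a coefficient of variation of 0.1 assumed, 5 of the 6 stayed called, beside 28.8% of all genes. With 0.4 assumed, 0 of the 6 were called, beside 4.63% of all genes. Pmepa1, which dampens TGF-beta signalling, was 2.42-fold lower in CiLC than in MEF (adjusted p = 3.13e-16), the inhibitor gene Smad7 1.83-fold (adjusted p = 6.42e-08) and Ltbp2, of the elastic matrix, 1.41-fold (adjusted p = 1.12e-08). In LC against MEF 2 of the 6 rose and 4 fell, beside 35.7% higher and 35.0% lower of all genes. In CiLC against LC 2 were higher, among them Pmepa1 (1.28-fold), and 4 lower, beside 35.0% and 35.6% of all genes.

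All 12 smooth muscle markers were lower in CiLC than in MEF and than in LC, as Ankrd1 and Ccn2 were. Of all genes, 25.5% were lower in CiLC than in MEF and 35.6% lower than in LC. None of the 12 markers was at 0 in any group. They summed to 1060 and 1080 CPM in CiLC, 4030 and 4000 CPM in LC, and 3810 and 3740 CPM in MEF. Between LC and MEF these markers split, with 7 higher and 5 lower in LC, beside 35.7% and 35.0% of all genes. Among them, Acta2 was 2.65-fold lower and Des 2.70-fold higher in LC. CiLC had more than MEF of 2 endothelial markers of 6 tested and less of 3, beside 26.1% and 25.5% of all genes. The endothelial sum in LC (69.3 to 78.0 CPM) was mostly Cdh5 (60.5 CPM). All 8 fibroblast markers were called in CiLC against MEF, 5 higher and 3 lower, beside 51.6% of all genes called. Pdgfra was 3.12-fold higher and Pdgfrb 3.05-fold lower in CiLC than in MEF, and Thy1 was 68.9-fold lower in LC than in MEF. The part of cell makeup in the levels of Ankrd1 and Ccn2 was not tested.

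The median log2 fold change over MEF of Ccn1, Ccn2 and Ankrd1 was taken separately in CiLC (-2.47) and in LC (-0.09). That pair belongs to no single gene, and Ccn1 (-0.25 and 0.87) lay far from it. Genes outside the set with at least 10 CPM in a group, 10598 in all, were ranked by distance to that pair. The 5 nearest were Ccr1, Siglecg, Notch3, Nacad and Rasal3. Ccr1, a chemokine receptor of myeloid cells, was nearest, at a distance of 0.262 log2 units, with 8.86 CPM in CiLC, 47.9 CPM in LC and 44.1 CPM in MEF. Notch3, a receptor of mural cells, had 26.7 CPM in CiLC, 113 CPM in LC and 116 CPM in MEF. These distances rest on 3 groups of 2 libraries and describe the pattern only.

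The TEAD core was also looked for in the other lists, in the same 250 bases. It was found in 6 of 16 genes of the target list with a window (37.5%) and in 5 of 6 of the coactivator and TEAD group (83.3%), beside 14.4% of all 27025 genes in the promoter table. Of the target genes with a core, Ankrd1, Amotl2, Ccn1, Axl, Crim1 and Ptpn14 were lower in CiLC than in MEF, by 1.19-fold to 15.2-fold, as were 15 of all 22 genes of the list. With an assumed coefficient of variation of 0.1, the calls of Amotl2, Ccn1, Axl and Crim1 were lost. These letters were not found in the windows of Gadd45b and F3, which were 3.45-fold and 1.98-fold lower. The regulators with a core did not share a direction, since Wwtr1 and Vgll3 were higher in CiLC than in MEF, Vgll4 was lower, and Yap1 was not called. Tead3 was 1.10-fold lower (adjusted p = 0.0231), a call lost without either CiLC library and without MEF replicate 1. Crim1 and Tead3 were named here after their values were seen.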

How the data were processed

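RNA was sequenced on the BGISEQ-500 platform in 6 libraries, 2 each of CiLC, LC and MEF, grouped by sample title. Per the file headers, the authors deposited an expected count (an estimated count that need not be whole) for each gene. Reads were aligned with HISAT to mm9, per the submitters' processing notes. How reads were counted, on which annotation and with which strand setting is not given in the sources used here, so a gene cannot be separated from one that overlaps it or runs antisense to it. Between 32.4% and 32.8% of the values of a library were not whole numbers. Symbols were found by NCBI gene number for 18179 of 18305 genes in a RefSeq table of GRCm38.p6. Promoter sequences came from RefSeq (GRCm38.p6), and no position was carried over from mm9.

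After rounding, edgeR 4.0.16 (R 4.3.3) was run on the estimated counts: filterByExpr (minimum count 10, minimum total 15), which left 14581 genes, trimmed mean of M values scaling, and a quasi-likelihood fit of all 6 libraries with group as the only term. P-values are two-sided and were adjusted by Benjamini-Hochberg over all genes tested, with calls at 0.05. CPM use the scaled library sizes and are given per library or as mean ± SD of 2 libraries. Standard errors and 95% intervals come from the fitted weights and moderated dispersion. The procedure was tested on simulated counts. Replicate libraries differed by more than sampling noise (chi-square per degree of freedom 1.80 to 2.94), so each was kept. Members and lists were chosen with earlier results of these data known. The text names all 10 members, the 4 non-members with the largest called change in CiLC against MEF in each pathway list, untested genes of short lists, and the 5 genes of nearest pattern. A gene that this rule names is not reported here. Other settings tried were RLE size factors, DESeq2 1.42.0, quantile normalization with limma 3.58.1, no filter, only the 4 libraries compared, the replicate number as a block, each library left out, and assumed coefficients of variation of 0.1 and 0.4.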

Additional observations from a re-analysis of the deposited data

How the results depend on the processing

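Counts depended most on the assumed spread. With a coefficient of variation of 0.4 assumed, calls fell to 407 genes up and 268 down in CiLC against MEF (3808 and 3721 with the estimated spread), 1450 and 1058 in LC against MEF (5203 and 5108), and 937 and 1314 in CiLC against LC (5108 and 5187). Of the 10 members, 0 were then called up and 2 down in CiLC against MEF, 0 and 0 in LC against MEF, and 0 and 2 in CiLC against LC. With 0.1, 2064 genes were called up and 2141 down in CiLC against MEF, with 1 member higher and 3 lower, 0 members were lower in LC than in MEF, and 0 were higher in CiLC than in LC. Quantile normalization called 5 members lower in LC than in MEF and 2 higher in CiLC than in LC. The cause was not tested.

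Among the members, the directions that turned were of log2 fold changes of at most 0.25 in size. Under quantile normalization the log2 fold changes were 0.148 (Yap1), 0.0269 (Wwtr1) and 0.0453 (Lats2) for CiLC over LC, -0.153 (Yap1) and -0.0242 (Amotl2) for LC over MEF, and -0.00498 (Yap1) for CiLC over MEF. Yap1 in CiLC over MEF was -0.000145 with RLE size factors and -0.000146 with DESeq2. With single libraries left out, Yap1 ranged from -0.00823 to 0.012 in CiLC over MEF (-0.0067 without CiLC replicate 2), from -0.0206 to 0.0829 in LC over MEF and from -0.0794 to 0.0254 in CiLC over LC. In LC over MEF, Amotl1 ranged from -0.116 to 0.0327 and Lats2 from -0.0139 to 0.002, and Ajuba ranged from -0.0746 to 0.036 in CiLC over LC. Of the 5 genes of nearest pattern, 2 remained when the minimum was 1 CPM.

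With the replicate number as a block, 3791 genes were called up and 3714 down in CiLC against MEF, and no call of a member changed. The numbers are not stated to mark a shared batch, and the deviations of same-numbered libraries correlated at 0.104 for CiLC with MEF, -0.00754 for LC with MEF and -0.0853 for CiLC with LC. Ankrd1 in CiLC rests on 27 and 26 reads, which limits the precision of its fold.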
